A study of Homo sapiens with 6 samples.

Results

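Cystatins and cathepsins form a pair of protein families that meet as inhibitor and protease. Cathepsins are proteases of the lysosome, most of them cysteine proteases made as inactive precursors and cut to their active form in acidic compartments, and some are secreted. Cystatins block cysteine cathepsins by sitting in the active site: type 1 cystatins (CSTA, CSTB) act mainly in the cytosol, and type 2 cystatins (CST3, CST6) are secreted. In stratified epithelia CSTA is also a building block of the cornified envelope, and a balance of CST6 with CTSL, CTSV and legumain is known from the skin barrier.

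The genes described here are 4 cystatins (CSTA, CSTB, CST3, CST6) and 6 cathepsins: the cysteine proteases CTSB, CTSC, CTSH, CTSL and CTSV and the aspartic protease CTSD. They were chosen by name, and every probe set whose only annotated symbol was one of these 10 was taken. This gave 21 of the 54613 probe sets tested, 10 of 19775 genes, and 0 probe sets shared with another symbol. The arrays measured MCF10A, a human breast epithelial line that is immortal but does not form tumours, in 3 samples with C/EBPbeta-2, a protein isoform of the transcription factor gene CEBPB, and in 3 control samples of the line alone. Both groups were untreated and grew in the same medium with horse serum, insulin, hydrocortisone, epidermal growth factor, cholera toxin and antibiotics. The labels call the samples biological replicates without saying whether they were separate cultures, so a p-value here reflects only how these samples vary, which may be technical. The means of adding C/EBPbeta-2, and whether the cells came from 1 clone, are not given in the sources used here.

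Values are log2 intensities, 1 per probe set and array, and differences are C/EBPbeta-2 minus control. Where a gene has several probe sets, the brightest on average over the 6 arrays stands for it. A gene or probe set was called at an adjusted p under 0.05, from limma with Benjamini-Hochberg adjustment over all genes or all probe sets. The 6 array medians lay between 4.46 and 4.56, and no detection calls were used, so values near or below them have no stated background. Poly-A spike-in RNA was low, at 3.85 to 3.98, for C/EBPbeta-2 replicate 2 and control replicate 1, and 7.21 to 8.25 for the remaining 4 arrays. C/EBPbeta-2 replicate 1 and control replicate 2 stood apart from the other 4 on principal component 1 (44.1% of the variance), at -64.1 and -93.9. The low-spike arrays lay at its other end, at 61.8 and 60.8. They also had the largest excess of ACTB 3' over 5' signal, which rises with shortened RNA, at 1.32 and 1.48. This excess was 0.18 and -0.04 on the 2 arrays that stood apart. On C/EBPbeta-2 replicate 3 and control replicate 3 it was 0.64 and 0.44. The same measure for GAPDH was 0.12 to 0.32. The part of RNA quality in these differences between arrays was not tested. CEBPB was not higher with C/EBPbeta-2 and so did not check the labels (difference -0.62, adjusted p = 1.00 by limma). It read 10.29, 10.50 and 11.38 with C/EBPbeta-2 and 11.27, 11.38 and 11.37 in controls. Its probes may lie outside an introduced sequence, which was not tested. Of 7 measured epithelial markers 1, KRT19, lay below every array median, while KRT5 (12.38 to 12.93) and EPCAM (8.39 to 9.38) were well above them on all arrays.

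With C/EBPbeta-2, the 10 genes split into 1 that fell, 1 that was higher on all 3 C/EBPbeta-2 arrays without being called, and 8 whose groups overlapped. CSTA was 9.16-fold lower and was called in the test over genes, and CTSB was 2.22-fold higher at its brightest probe set. Over all genes limma called 0.263%, or 0.167% as lower and 0.0961% as higher. Over all probe sets it called 0.0659%, and 0 of the 21 described here. The C/EBPbeta-2 and control arrays did not overlap for 6 of the 21 probe sets, 1 of CSTA and 5 of CTSB, against 7.62% of all probe sets. The same 6 had an unadjusted p under 0.05, against 3.98% of all probe sets. These counts take CTSB 5 times. At 1 probe set a gene, the groups did not overlap for 2 of the 10 genes, against 8.63% of all genes. The same 2 had an unadjusted p under 0.05 in limma, against 1068 of all 19775 genes. The median difference over the 10 genes was -0.19, against 0.01 over all genes.

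**Figure D1:**
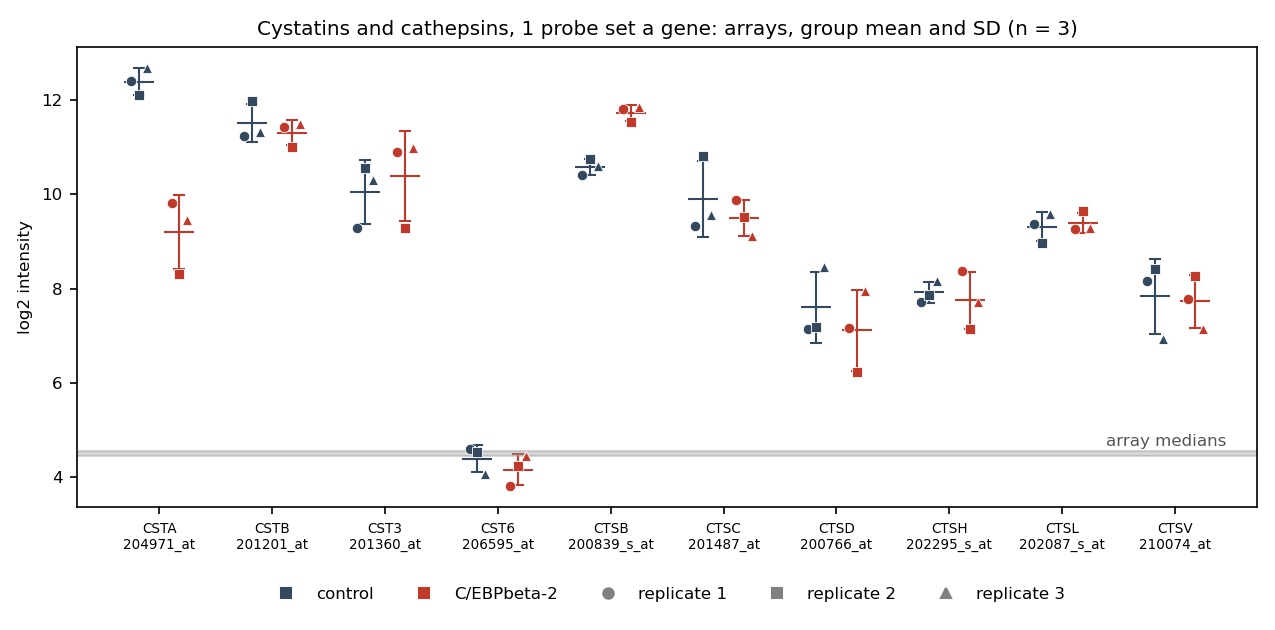
Log2 intensity (vertical axis) of each of the 10 genes at its brightest probe set, with controls in dark blue and C/EBPbeta-2 in red; symbols are the single arrays, crossbars the group means and whiskers the SD (n = 3). CSTA is lower and CTSB higher on all 3 C/EBPbeta-2 arrays, the other 8 genes overlap, and CST6 lies at the grey band of the array medians.

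CSTA encodes cystatin A, an intracellular inhibitor of CTSB, CTSH and CTSL that is abundant in squamous epithelium. Its single probe set, 204971_at, read 9.83, 8.31 and 9.46 on C/EBPbeta-2 replicates 1 to 3 and 12.40, 12.10 and 12.68 on control replicates 1 to 3. The highest C/EBPbeta-2 array thus lay more than 2 log2 units below the lowest control array, and the C/EBPbeta-2 arrays spread more widely (SD 0.79 against 0.29, n = 3 each). All 6 values were far above the array medians. The mean log2 intensity fell from 12.39 to 9.20, a difference of -3.20 (SE 0.40, 95% interval -4.16 to -2.23). The adjusted p from limma was 0.0496 over genes, just inside the threshold, and 0.0891 over all probe sets, outside it.

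The CSTA call was lost in most fits with fewer arrays, while its direction held. It was kept without C/EBPbeta-2 replicate 2 (adjusted p = 0.0483, limma) and lost without C/EBPbeta-2 replicate 1 (0.102) or 3 (0.199) and without control replicate 1 (0.175), 2 (0.0934) or 3 (0.276), and the difference stayed between -3.51 and -2.75. It was also lost with each array centred on its median (0.0590), after a second quantile normalization (0.0646), without _x_at and _s_at probe sets of other genes (0.0519), and without the 2 low-spike arrays (0.188) or the 2 apart on component 1 (0.170), out of 19 alternatives that gave 0.0165 to 0.276. On the 2 arrays with low spike-in signal the difference was -4.09 and on the other 4 it was -2.75. Of the 7 measured epithelial markers, 2 fell with it, KRT14 (-3.0, adjusted p = 0.0347, limma) and CDH1 (-2.14, adjusted p = 0.0282, limma). KRT14 passed with C/EBPbeta-2 replicate 2 left out (0.0213) and with no other single array left out (0.0905 to 0.219). With the mean of the probe sets of a gene, KRT14 passed (adjusted p = 0.0219, limma) and CDH1 did not (0.194). The other 5 overlapped between groups and differed by -0.24 (KRT8) to 0.09 (KRT18), with a median over the list of -0.13. The mean over the list was 9.14 to 9.24 on C/EBPbeta-2 arrays and 9.80 to 10.06 on controls, a gap that comes almost wholly from KRT14 and CDH1. The part of these markers in the CSTA result was not tested. In RNA from whole cultures, fewer cells that express a gene and less RNA per cell cannot be told apart.

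CSTB encodes cystatin B, the other type 1 inhibitor, which is present in most cells. Its brighter probe set, 201201_at, read 11.42, 11.00 and 11.49 with C/EBPbeta-2 and 11.23, 11.97 and 11.33 in controls. The groups overlapped, with control replicate 2 highest and C/EBPbeta-2 replicate 2 lowest. The difference was -0.21 (SE 0.25, 95% interval -0.81 to 0.40, adjusted p = 1.00, limma), and it was 0.02 without control replicate 2. The dimmer probe set 236449_at, at 4.89 to 5.41, gave 0.23, so the direction was not the same at both. The interval of CSTB does not reach that of CSTA, and the difference between these 2 differences was not tested.

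CST3 encodes cystatin C, the widely secreted inhibitor of cysteine cathepsins. At 201360_at it read 10.90, 9.28 and 10.98 with C/EBPbeta-2 and 9.29, 10.55 and 10.31 in controls. Its lowest values were on C/EBPbeta-2 replicate 2 and control replicate 1, the 2 arrays with low spike-in signal, and the groups overlapped. The difference was 0.34 (SE 0.54, 95% interval -0.97 to 1.64), which was -0.01 on the low-spike arrays and 0.51 on the other 4. The dimmer CST3 probe sets had another order of arrays. Probe set 230343_at was lowest on control replicate 2, at 3.61 against 4.98 to 5.90 elsewhere, and 237623_at also had its lowest value there, 5.48 against 5.94 to 6.65. Their differences were 0.42 and 0.18, and both turned negative without control replicate 2, at -0.29 and -0.14.

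CST6 encodes cystatin M/E, a secreted inhibitor that also blocks legumain. Probe set 206595_at read 3.8, 4.23 and 4.45 with C/EBPbeta-2 and 4.59, 4.53 and 4.06 in controls, below the array's median on 5 of the 6 arrays. Probe set 231248_at lay below the array median on all 6 arrays, at 3.37 to 3.75. The differences were -0.24 (SE 0.24) and -0.14 (SE 0.15), and without detection calls neither probe set shows whether the transcript was present.

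CTSB encodes cathepsin B, a cysteine protease of the lysosome that also works as a dipeptide-removing exopeptidase and can be secreted or bound at the cell surface. It was measured by 5 probe sets, and on each of them all 3 C/EBPbeta-2 arrays were above all 3 controls. The brightest, 200839_s_at, read 11.82, 11.54 and 11.85 with C/EBPbeta-2 and 10.41, 10.75 and 10.60 in controls. Its spread was small and alike in both groups (SD 0.17 each, n = 3). The difference was 1.15 (SE 0.17, 95% interval 0.74 to 1.56), with an adjusted p of 0.0838 over genes and 0.138 over probe sets (limma), so CTSB was not called.

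The other CTSB probe sets gave larger differences and wider spread. Probe set 227961_at read 10.35, 9.46 and 10.76 with C/EBPbeta-2 and 8.20, 8.64 and 7.64 in controls, a difference of 2.03 (SE 0.40, 4.08-fold, adjusted p = 0.332 over probe sets, limma). Probe set 213274_s_at read 9.97, 8.43 and 9.73 against 7.36, 8.0 and 7.59, a difference of 1.72 (SE 0.42). Probe set 213275_x_at read 10.98, 9.66 and 11.42 against 8.91, 9.51 and 8.85, a difference of 1.59 (SE 0.46). On all 5 probe sets C/EBPbeta-2 replicate 2 was the lowest of its group and control replicate 2 the highest of its group, and these 2 arrays came closest to each other. Probe set 200838_at read 11.73, 10.75 and 11.41 against 9.58, 10.61 and 9.91, a difference of 1.26 (SE 0.35). The 5 probe sets read the same RNA samples and 3 of them carry the suffix _s_at or _x_at, which can mark probes shared with other transcripts, so they are not independent measurements.

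**Figure D2:**
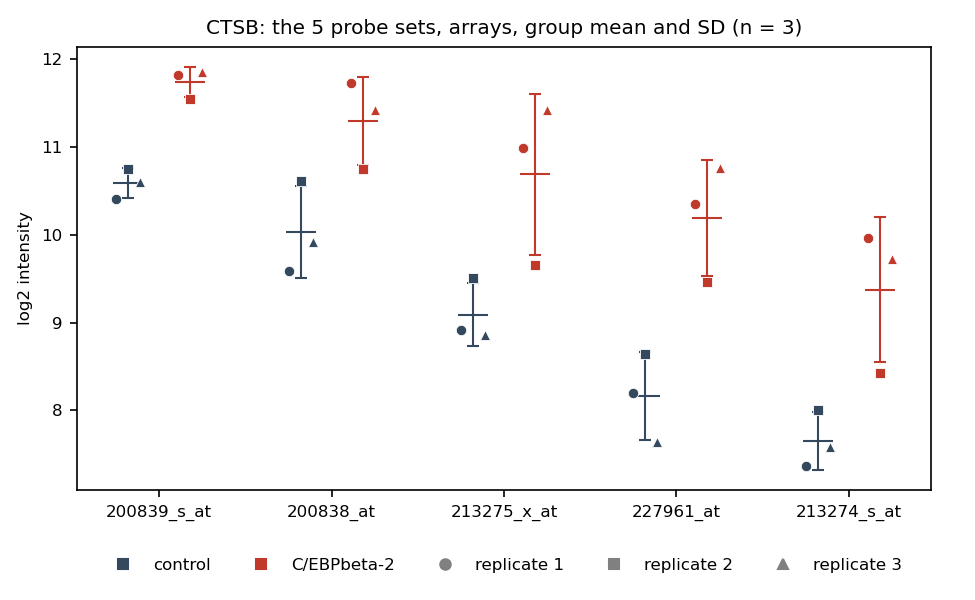
Log2 intensity (vertical axis) at the 5 probe sets of CTSB, with controls in dark blue and C/EBPbeta-2 in red; symbols are arrays, crossbars group means and whiskers the SD (n = 3). The groups do not overlap at any of the 5, and the gap is narrowest between C/EBPbeta-2 replicate 2 and control replicate 2, both drawn as squares.

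The size of the CTSB difference at 200839_s_at held across arrays: it was 1.13 on the low-spike arrays and 1.16 on the other 4, and between 1.06 and 1.25 whichever array was left out. At 227961_at it was 1.26 on the low-spike arrays and 2.41 on the others, and at 213275_x_at 0.74 and 2.02. CTSB was called with array weights (adjusted p = 0.0302, limma) and with a covariate for the excess of ACTB 3' over 5' signal, which rises with shortened RNA (0.0375), and under none of the other 17 alternatives. With the mean of its 5 probe sets the difference was 1.55 (adjusted p = 0.235, limma). The leukocyte markers, of interest because macrophages are rich in cathepsins, averaged 4.33 to 4.50 on C/EBPbeta-2 arrays and 4.22 to 4.56 on controls. Of the 7 measured 3 lay below every array median (PTPRC, MS4A1 and TYROBP), 0 were called, and CD14 differed by 0.92 (adjusted p = 0.260, limma). CD14 read 7.28, 6.85 and 7.09 with C/EBPbeta-2 and 6.05, 5.98 and 6.45 in controls. Its groups did not overlap, and all its values were above the array medians. CSF1R, also above the medians on every array, differed by -0.47 with overlapping groups. The part of these markers in the CTSB result was not tested.

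**Figure D3:**
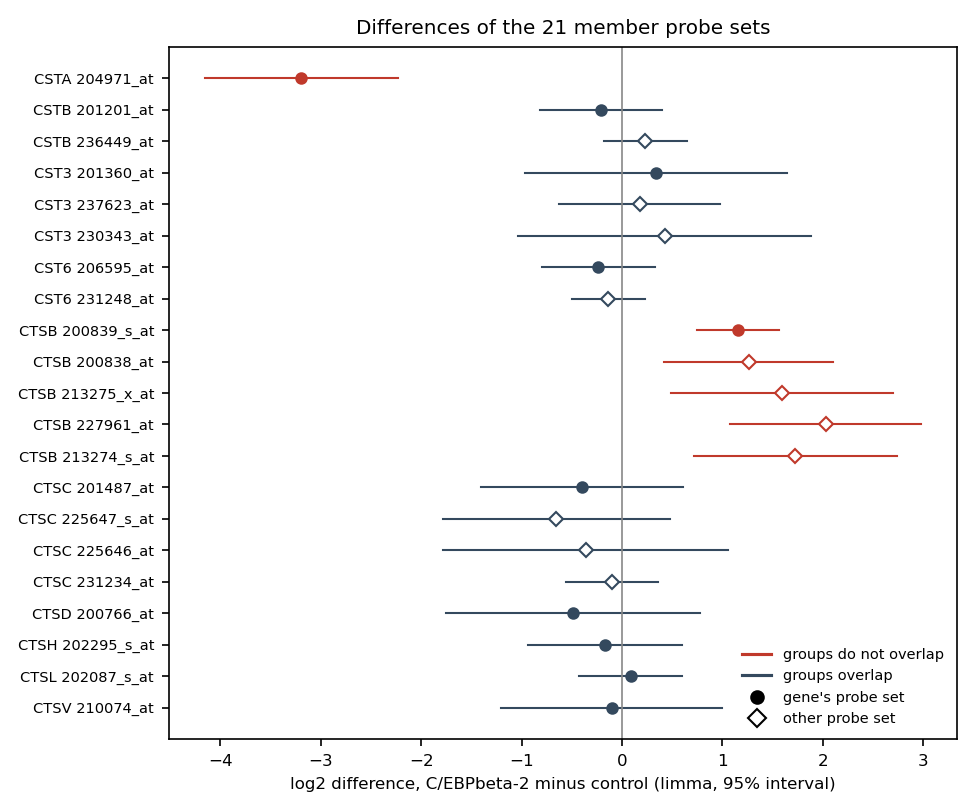
Log2 difference, C/EBPbeta-2 minus control (horizontal axis), with its 95% interval from limma, for each of the 21 probe sets; red marks probe sets whose groups do not overlap, filled circles the probe set that stands for the gene and open diamonds the others. CSTA lies at -3.20 and the 5 CTSB probe sets between 1.15 and 2.03, while the other 15 lie between -0.66 and 0.42.

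CTSC encodes dipeptidyl peptidase 1, which activates serine proteases of leukocyte granules. Its probe set 201487_at read 9.88, 9.53 and 9.12 with C/EBPbeta-2 and 9.32, 10.81 and 9.57 in controls. Control replicate 2 was the highest of the 6 arrays at all 4 CTSC probe sets, reaching 10.92 at 225647_s_at and 10.63 at 225646_at. The difference was -0.40 (SE 0.42, 95% interval -1.40 to 0.61) and became 0.06 without that array. At the other 3 probe sets it was -0.66, -0.36 and -0.10.

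CTSH, an aminopeptidase among the cysteine cathepsins, read 8.37, 7.16 and 7.72 with C/EBPbeta-2 and 7.72, 7.87 and 8.17 in controls at 202295_s_at. The C/EBPbeta-2 arrays held both the highest and the lowest value, and the difference was -0.17 (SE 0.32, 95% interval -0.94 to 0.60). CTSD, the main aspartic protease of the lysosome and no target of cystatins, read 7.16, 6.24 and 7.95 against 7.15, 7.19 and 8.47 at 200766_at. In both groups the sample numbered 3 was highest, and the difference was -0.49 (SE 0.53, 95% interval -1.75 to 0.78).

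CTSL and CTSV are close paralogs on chromosome 9: CTSL is an endopeptidase of most cells, and CTSV is expressed mainly in thymus, testis and stratified epithelium. Their promoters are shown because they let the pair be compared at sequence level. Each line gives the 150 bases just before the annotated start, 5′ to 3′ on the gene's strand, from RefSeq on GRCh38.p14, and the capitals mark the longest run of bases that both share, 23 bases around a CCAAT box. CTSL is at chr9:87725969-87726118 on the plus strand and CTSV at chr9:97039143-97039292 on the minus strand.
CTSL: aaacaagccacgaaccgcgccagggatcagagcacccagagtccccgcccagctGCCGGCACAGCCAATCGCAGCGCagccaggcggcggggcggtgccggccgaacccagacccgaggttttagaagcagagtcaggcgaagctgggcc
CTSV: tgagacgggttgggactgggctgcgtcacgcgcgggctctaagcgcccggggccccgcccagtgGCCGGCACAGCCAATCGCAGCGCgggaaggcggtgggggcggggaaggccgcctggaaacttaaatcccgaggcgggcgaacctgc
The shared run spans bases 96 to 74 before the start in CTSL and 86 to 64 in CTSV.

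Neither paralog differed between groups beyond its spread. CTSL at 202087_s_at read 9.26, 9.64 and 9.28 with C/EBPbeta-2 and 9.37, 8.98 and 9.58 in controls. The difference was 0.09 (SE 0.21, 95% interval -0.43 to 0.60). CTSV at 210074_at read 7.79, 8.27 and 7.15 against 8.17, 8.42 and 6.93, a difference of -0.10 (SE 0.46, 95% interval -1.20 to 0.996). In both groups the sample numbered 3 was the lowest for CTSV. For 4 of the 8 genes other than CSTA and CTSB (CSTB, CST6, CTSH and CTSL) the 95% interval stayed within a 2-fold change in either direction. CST6 lay near or below the array medians, so its interval is of the signal and does not bound a change in the transcript. For CST3, CTSC, CTSD and CTSV the interval reached past 2-fold in at least 1 direction.

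The promoter table holds 6 of the 10 genes: CST3, CTSC, CTSD, CTSH, CTSL and CTSV. In the 250 bases before the start, the C/EBP motif TTGCNNAA, searched on both strands, was found in 0 of the 6, against 9.05% of all 35116 promoters. The CCAAT box was found in 3 (CTSC, CTSL and CTSV), against 32.0% of all. The E-box CACGTG was found in 1 (CTSD), against 6.34% of all. These are matches of letters in this window and say nothing on binding. The promoters of CSTA and CTSB, which carry the differences above, were not analysed here.

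Among 21 other cystatins, relatives of them and cathepsins, all measured, the count of limma calls was 0 (1 at an unadjusted p under 0.05) and the median difference was -0.11. Of these genes 9 lay below every array median, among them CTSS, a cathepsin of antigen-presenting cells, at 3.71 to 4.08. The 3 largest differences were in CTSK, the collagen-degrading cathepsin of osteoclasts (-0.72, adjusted p = 1.00, limma), CTSF (-0.60, adjusted p = 0.785, limma) and CTSE, an aspartic protease (0.37, adjusted p = 0.954, limma). CTSK read 4.77, 4.95 and 4.91 with C/EBPbeta-2 and 6.63, 4.78 and 5.38 in controls, and its difference was -0.21 without control replicate 1. CTSF read 5.97, 5.88 and 6.39 against 6.99, 6.66 and 6.40, so its groups met without overlapping. CTSE read 4.52, 4.64 and 4.29 against 4.06, 4.18 and 4.11, near or below the array medians.

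Of 43 measured genes of the lysosome none passed in limma (0 called, 4 at an unadjusted p under 0.05) and the median difference was 0.07. The groups did not overlap for 4 of them, or 9.30%, against 8.63% of all genes. GM2A, the activator protein of ganglioside breakdown, read 11.84, 11.10 and 11.64 with C/EBPbeta-2 and 9.83, 10.02 and 10.13 in controls. All 3 C/EBPbeta-2 arrays were higher, with a difference of 1.53 (SE 0.23, adjusted p = 0.0838, limma). FUCA1, a lysosomal fucosidase, differed by 1.71 (adjusted p = 0.333, limma). With the mean of the probe sets of each gene, GM2A differed by 1.33 (adjusted p = 0.485, limma) and FUCA1 by 0.92 (adjusted p = 0.307, limma). NPC2, a cholesterol carrier of the lysosome, differed by -0.83 (adjusted p = 1.00, limma). Its groups overlapped, C/EBPbeta-2 replicate 2 was lowest at 9.03, and the NPC2 difference was -0.26 without that array.

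The partner genes, substrates, targets and neighbours of these proteases in the epidermis and at the cell surface, moved both ways. Of 24 measured, limma called 1 as higher and 1 as lower, and the median difference was -0.03. The groups did not overlap for 7 of the 24, or 29.2%, against 8.63% of all genes. At an unadjusted p under 0.05 in limma there were 7, against 1068 of all 19775 genes. The list was chosen with earlier results of these data known. SERPINB3, a serpin that inhibits cysteine cathepsins, rose by 4.47 (SE 0.53, adjusted p = 0.0391, limma), from 5.92 to 7.34 in controls to 10.01 to 11.59 with C/EBPbeta-2, and its probe set 209719_x_at may read related serpins. CDH1, the adhesion protein E-cadherin, fell by 2.14. Neither call remained with any 1 of the 6 arrays left out. The adjusted p (limma) was then 0.0713 to 0.219 for SERPINB3 and 0.0617 to 0.167 for CDH1. With the mean of the probe sets of a gene, CDH1 differed by -1.94 and was not called (adjusted p = 0.194, limma). SERPINB3 was called with that mean (4.38, adjusted p = 0.0194, limma).

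TGM1, the transglutaminase that crosslinks envelope proteins such as CSTA, read 5.37, 5.52 and 4.80 with C/EBPbeta-2 and 8.20, 7.13 and 7.69 in controls. Its groups did not overlap, and the difference of -2.44 (SE 0.32) was not called (adjusted p = 0.0578, limma; called in 7 of 19 alternatives, which gave 0.0162 to 0.317). KLK7, a kallikrein of epidermal shedding, differed by -2.22 (adjusted p = 0.279, limma). LGMN, the legumain that CST6 blocks, differed by 0.20 with overlapping groups. ANXA2 and S100A10, whose complex anchors CTSB precursor at the cell surface, differed by -0.05 and 0.01.

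**Figure D4:**
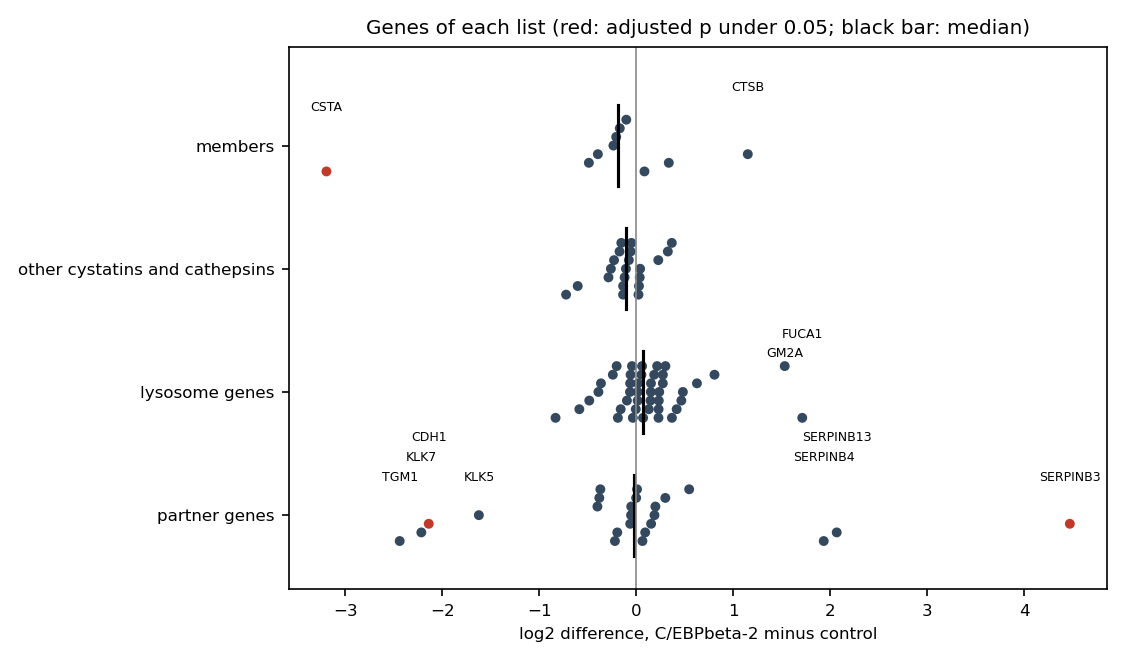
Log2 difference, C/EBPbeta-2 minus control (horizontal axis), of each measured gene of the 10 described here (members) and of the 3 other lists; red points have an adjusted p under 0.05 over all genes, black bars are list medians and the vertical spread only separates points. The medians lie between -0.19 and 0.07, with CSTA at -3.20 and SERPINB3 at 4.47 farthest out.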

How the data were processed

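The labels give 3 arrays with C/EBPbeta-2 and 3 controls, which were compared as such. The authors deposited intensities on a linear scale (4.17 to 17825), and the submitters' processing notes name RMA with no version; the step from the log2 scale of RMA to these values is not stated there. They were taken to log2 with no pseudocount, normalization or filter. The manufacturer's 62 control probe sets were set aside. Gene names came from the platform's annotation; of 41091 probe sets with 1 symbol 41037 matched the gene reference. Limma 3.58.1 in R 4.3.3 fitted all 54613 probe sets with no covariate, two-sided, and was tested on simulated data; the p-values of 1 probe set a gene were adjusted again over 19775 genes. Python 3.11.15, pandas 2.3.3, numpy 2.4.6 and matplotlib 3.10.9 did the rest. The number of arrays limits the precision. Members, lists (3 of related genes, 3 of cell type markers) and most alternatives were chosen with earlier results of these data known. Named were all 10 genes at every probe set, CEBPB, and the called genes and the 3 with the largest differences of each list of related genes; CTSS, LGMN, ANXA2, S100A10 and the markers were named after their values were seen. Of the fibroblast markers, also measured, limma called 0 of 7 (mean over the list 4.78 to 5.28 with C/EBPbeta-2 and 5.05 to 5.48 in controls), and DCN differed by -2.61.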

Additional observations from a re-analysis of the deposited data

How the results depend on the processing

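Each result was recomputed under up to 19 alternatives. Most were listed with earlier results of these data known, and 3 more were added after seeing the values of these genes (the prior variance from 1 probe set a gene, and leaving out either pair of arrays that stood apart). The direction of CSTA and of all 5 CTSB probe sets held under every alternative run. The member genes called, 1 at first, were 2 with array weights or the ACTB 3' minus 5' covariate. They were 0 with arrays centred on their medians (CSTA adjusted p = 0.0590, limma), with quantile normalization again (0.0646) and without _x_at or _s_at probe sets (0.0519). They were also 0 without the 2 low-spike arrays (0.188) and without the 2 arrays apart on component 1 (0.170), and 0 to 1 without single arrays. Over all 19, the CSTA adjusted p ran from 0.0165 to 0.276 and passed in 8. Of the 21 member probe sets, 1 was called with array weights, without dim probe sets or with a trended and robust prior, and 0 without any single array. All probe sets called, 36 at first, were 78 with the ACTB covariate and also without dim probe sets (mean log2 under 4.52), 122 with array weights, 67 with the trended prior, 6 without the low-spike arrays, 0 without the arrays apart on component 1, and 5 to 37 without single arrays. Of the lysosome genes 1, GM2A, was called with array weights or the ACTB covariate. Of the partner genes, 2 at first, 3 were called with array weights, the ACTB or spike-in covariate, dim probe sets left out or quantile normalization again, TGM1 being the third. It was 1 with centred arrays, 0 without either pair of arrays, and 0 to 1 without single arrays. With the mean of the probe sets of a gene it was 2, SERPINB3 and TGM1, without CDH1. Without _x_at or _s_at probe sets it was 0. SERPINB3 and CDH1 are then not tested, and TGM1, which is, did not pass (adjusted p = 0.0610, limma).

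With the replicate number as a block, 0 probe sets, 0 member genes and 0 partner genes were called (CSTA adjusted p = 0.157, CTSB 0.430, limma). Whether equal numbers mark paired samples is not given in the labels. The correlations of deviations from the group means cannot settle it, because such deviations sum to 0 within each group of 3. They were -0.45, -0.55 and 0.42 for replicates 1, 2 and 3. Only the samples numbered 3 correlated best with their own number. The highest values joined different numbers, C/EBPbeta-2 replicate 2 with control replicate 1 (0.66) and C/EBPbeta-2 replicate 1 with control replicate 2 (0.64), which are the low-spike pair and the pair apart on component 1; the labels give no such pairing and none was fitted.

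Signs turned in 24 of 334 values of the 21 probe sets, of which 0 were called at first. No sign turned at CSTA or CTSB. Leaving out single arrays gave -0.35 to 0.02 for CSTB 201201_at, -0.04 to 0.89 for CST3 201360_at, -0.14 to 0.44 for 237623_at and -0.29 to 0.8 for 230343_at. It gave -0.69 to 0.06 for CTSC 201487_at, -0.9 to 0.19 for 225646_at, -0.22 to 0.02 for 231234_at, -0.48 to 0.13 for CTSH, -0.08 to 0.22 for CTSL and -0.56 to 0.19 for CTSV. With array weights CTSC 231234_at was at 0.03, CTSL at -0.07 and CTSV at 0.07. Without the arrays apart on component 1, CST3 230343_at was at -0.05, CST6 206595_at at 0.01, CTSC 231234_at at 0.09, CTSL at -0.01 and CTSV at 0.16. Without the low-spike arrays CTSH was at 0.03 and CTSL at -0.01. All these turns came from fits with arrays left out or weighted. Their cause was not tested.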
